A study of Mus musculus with 3 samples.

Results

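The genes described here encode the RNA and protein parts of RNase P and RNase MRP in mouse macrophages. They are the 10 genes with the symbols Rpph1, Rmrp, Pop1, Pop4, Pop5, Pop7, Rpp14, Rpp25, Rpp30 and Rpp38, taken by symbol from the deposited tables. The 10 symbols correspond to 11 gene identifiers of 55536, because Rmrp has 2. The study sequenced total RNA, depleted of ribosomal RNA, from the cytosol of bone marrow-derived macrophages (BMDM), primary cells of mouse strain C57BL/6J. The 3 libraries form a single group, replicates 1, 2 and 3. It is labelled as Lipid A at 100 ng/ml for 0 minutes, Lipid A being the TLR4-activating portion of bacterial lipopolysaccharide. Sex and age were not collected, no genetic change is named, and there is no second group to compare with. The biosamples are separate but the donor label is shared, and no label says whether they are different animals or different cultures. The SDs and p-values below therefore describe variation among these samples, part or all of which may be technical.

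RNase P is a ribonucleoprotein enzyme that cuts the 5′ leader off precursor tRNAs, and its RNA, Rpph1, is the catalytic part. RNase MRP is built on a related RNA, Rmrp, cuts the precursor of ribosomal RNA in the first internal transcribed spacer, and shares most of its proteins with RNase P. Both RNAs are made by RNA polymerase III from promoters that lie outside the transcribed sequence. Both enzymes are known to work mainly in the nucleus and nucleolus. The libraries analysed here are cytosolic, so the levels below are those of the cytosolic fraction as prepared.

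The sequences of the 2 RNAs are shown because their short length and their overlapping annotation bear on how reads were counted. They are the GENCODE M21 transcripts on mm10, on the minus strand, written 5′ to 3′ as DNA letters. Rpph1 lies at chr14:50807449-50807767 and is 319 bases long, of which the first 300 are printed. Capitals mark a 23-base run that occurs at both position 182 and position 203, counted from the 5′ end, so that its copies repeat with a period of 21 bases. The Rmrp transcript at chr4:43492783-43493063 is 281 bases long and is annotated as a lincRNA. A second Rmrp entry, annotated as a ribozyme (chr4:43492788-43493058), lies wholly within it and lacks the 5 bases in capitals at each end.
Rpph1: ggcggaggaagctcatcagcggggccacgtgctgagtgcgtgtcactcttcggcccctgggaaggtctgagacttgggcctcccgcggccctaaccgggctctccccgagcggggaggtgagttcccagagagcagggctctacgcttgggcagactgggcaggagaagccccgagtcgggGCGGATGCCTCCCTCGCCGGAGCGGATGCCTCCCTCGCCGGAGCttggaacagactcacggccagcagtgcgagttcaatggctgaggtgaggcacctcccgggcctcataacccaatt
Rmrp: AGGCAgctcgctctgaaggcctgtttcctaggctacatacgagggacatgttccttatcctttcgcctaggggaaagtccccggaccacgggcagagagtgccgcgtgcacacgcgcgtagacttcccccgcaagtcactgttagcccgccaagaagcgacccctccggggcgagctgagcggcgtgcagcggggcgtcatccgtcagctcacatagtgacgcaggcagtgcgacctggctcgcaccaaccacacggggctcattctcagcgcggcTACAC
The longest run of bases that the 2 RNAs have in common is 9 bases long. Stretches of 31 bases, starting every 10 bases along Rpph1 and Rmrp, were looked for in 141767 annotated transcripts on both strands. For Rpph1, 20 of 29 stretches were also present in Ccnb1ip1-202, a transcript of the neighbouring gene on the same strand. Only 1 stretch was found in Rprl3, an RNase P RNA-like gene named here after this search. For Rmrp, 10 of 26 stretches were present on the opposite strand in Ccdc107-206, a transcript of a gene that overlaps Rmrp.

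By TPM, Rpph1 and Rmrp were among the most abundant transcripts of the cytosolic fraction, and the protein subunit mRNAs were low. In all, 9 of the 10 genes reached a TPM of at least 1 in all 3 libraries, and Rpp25 did not. TPM is a level per base of effective length, with every library brought to an equal sum. Rpph1 stood 4th by TPM among all gene identifiers in each of the 3 libraries, and the ribozyme entry of Rmrp stood 5th in each. These ranks rest on counts divided by effective lengths of 59.65 to 110.92 bases, and ranks in counts were not taken. The labels also give a size range of 250 to 400 for each library, and the RNAs are 271 to 319 bases long. The part of this size range in the levels of short RNAs and in their ratios was not tested. Depth was 26318761 expected counts over genes in replicate 1, 41897257 in replicate 2 and 56290298 in replicate 3. The labelled cell type matched its markers: all 6 macrophage markers were detected in all 3 libraries. All 3 markers each of T cells, B cells, erythroid cells and fibroblasts had a TPM under 1 in each library. Of 3 neutrophil markers, 2 were below 1 and Ngp had a TPM of 1.83 ± 0.51 (SD, n = 3). In bulk RNA, fewer cells of a type and less RNA per cell cannot be told apart.

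**Figure D1:**
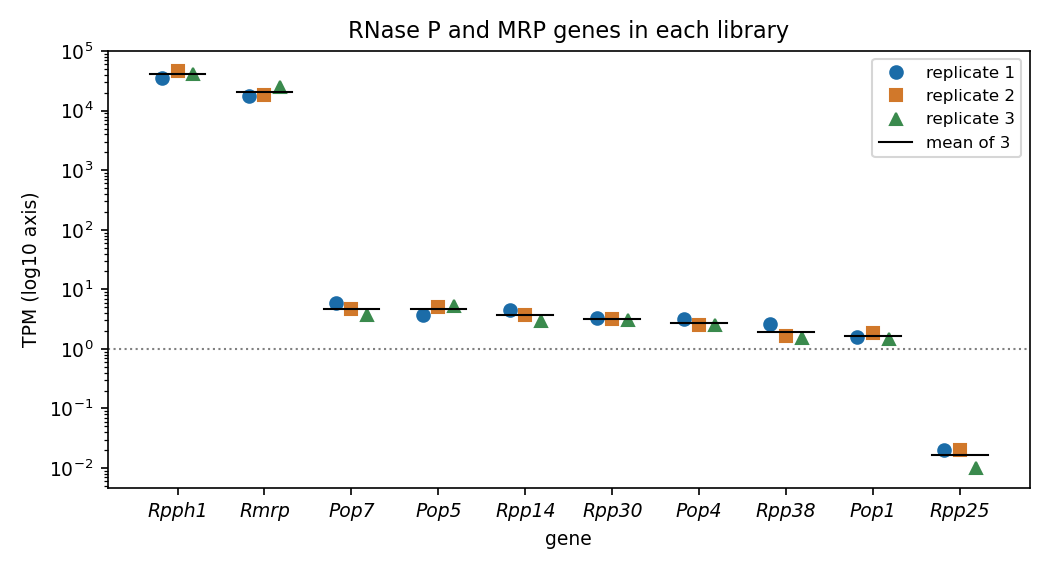
TPM of each RNase P and MRP gene on a log10 axis, with 1 symbol per library, a bar for the mean of 3 libraries and a dotted line at a TPM of 1; Rmrp is the sum of its 2 identifiers. Rpph1 and Rmrp lie between 17528.4 and 47178.5, the 7 detected protein genes between 1.46 and 5.92, and Rpp25 at or below 0.02.

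Rpph1, the RNase P RNA, had a TPM of 34907.6 in replicate 1, 47178.5 in replicate 2 and 40971.6 in replicate 3. Its mean was 41019 ± 6136 (SD, n = 3), with replicate 1 lowest and replicate 2 highest. The expected counts behind these levels were 161188, 441977 and 498766. They made up 0.612%, 1.05% and 0.886% of the counts over genes, with 95% Wilson intervals of 0.609% to 0.615%, 1.052% to 1.058% and 0.884% to 0.889%. These intervals cover counting error only. Rpph1 has a full length of 319 bases, and the effective length by which its counts were divided was 97.6, 110.92 and 110.7 bases. In the kallisto-format tables the level was 12780.6, 20391.4 and 13158.2, a mean of 15443 ± 4289, which is below the lowest value of the gene tables in every library. Rescaling TPM over the members and the genes with an effective length of at least 500 bases gave a mean of 153174. The order of the libraries was the same in TPM and in the kallisto-format tables, with replicate 2 highest and replicate 1 lowest.

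Rmrp, the RNase MRP RNA, had a summed TPM of 17528.4, 18140.3 and 25409.6 in replicates 1, 2 and 3, a mean of 20359 ± 4384 (SD, n = 3). Replicates 1 and 2 lay close together and replicate 3 was highest. Its expected counts were 51733, 109757 and 199908, or 0.197%, 0.262% and 0.355% of the counts over genes. The kallisto-format tables gave 5360.9, 6743.8 and 7002.76, again with replicate 3 highest and replicate 1 lowest. Without replicate 3 the mean TPM of Rmrp was 17834.3, and that of Rpph1 was 41043.

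The sum of Rmrp was split between its identifiers differently in each library and in each kind of table. The ribozyme entry had a TPM of 11029 in replicate 1, 14267.4 in replicate 2 and 20237.2 in replicate 3. The lincRNA entry had 6499.41, 3872.83 and 5172.43. In the gene tables, 39.8%, 23.3% and 22.2% of the Rmrp reads were given to the lincRNA entry. In the kallisto-format tables these shares were 55.6%, 30.8% and 27.6%, so that in replicate 1 the order of the entries was the opposite of that in the gene tables. The posterior SD of the count of either entry was 256 reads in replicate 1, 342 in replicate 2 and 431 in replicate 3. For Rpph1, which has 1 entry, it was below 0.5 reads in every library. The ribozyme transcript lies wholly inside the lincRNA transcript, so by sequence only reads that reach the 5 outer bases at an end tell the entries apart. The sum is therefore used below.

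Rpph1 was higher than Rmrp in each library, by 1.99-fold in replicate 1, 2.60-fold in replicate 2 and 1.61-fold in replicate 3. The mean log2 ratio of TPM was 1.02 ± 0.35 (SD, n = 3), with p = 0.25 in the exact two-sided sign-flip permutation test over libraries, which is the smallest p that 3 libraries can give. The size of the ratio depended on the unit. It was 2.38-, 3.02- and 1.88-fold in the kallisto-format tables, and 3.12-, 4.03- and 2.49-fold in expected counts, which take no account of length. In every unit replicate 2 had the highest ratio and replicate 3 the lowest. The log2 ratio was positive under all 9 alternative settings, from 0.84 to 1.66. With all 3 libraries positive, leaving out a library, adding a pseudocount or using the higher Rmrp identifier alone could not have reversed it. Only the other quantifications and treatments of length could have.

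**Figure D2:**
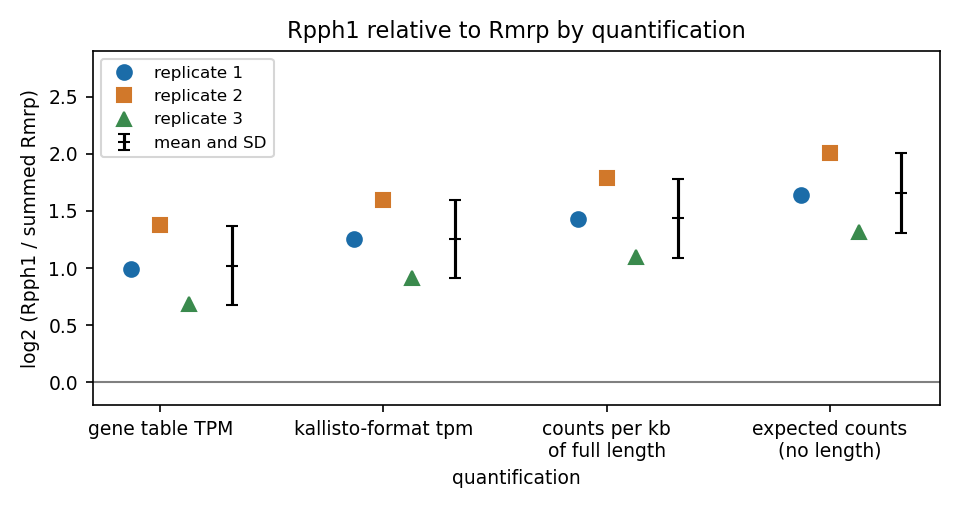
Log2 ratio of Rpph1 to summed Rmrp in each library under 4 quantifications, with 1 symbol per library and the mean with its SD (n = 3) at the right of each group; the grey line marks equal levels. All 12 values lie above 0, between 0.69 and 2.01, with replicate 2 highest and replicate 3 lowest each time.

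In counts relative to library size, the libraries differed in these RNAs by more than most genes did. The spread was measured as the SD over libraries of TMM-scaled log2 CPM (counts relative to library size) with edgeR. It was 0.44 for Rpph1 and 0.47 for Rmrp, at a depth where counting error is only 0.0027 and 0.0048. Of 12412 genes past edgeR's filter on low counts, 91.4% had a smaller SD than Rpph1 and 92.4% a smaller SD than Rmrp. The median SD over all of these genes was 0.12. Among the 203 genes of the highest level class, the 90th percentile of the SD was 0.28.

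Relative to its own mean, Rpph1 deviated by -0.49 in replicate 1, 0.36 in replicate 2 and 0.14 in replicate 3 on the log2 scale. Rmrp deviated by -0.48, 0.00 and 0.47. In log2 CPM, both RNAs were thus lowest in replicate 1, and they differed in which library was highest. In TPM, Rmrp was nearly level between replicates 1 and 2, at 17528.4 and 18140.3. Without replicate 1 the SD of Rpph1 was 0.16 and that of Rmrp 0.33. Without replicate 3 they were 0.60 and 0.34.

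On the same scale, 4 of the 7 other short structured RNAs examined also had their lowest value in replicate 1. Rny1 and Rny3 had 0 counts in each library and so have no lowest library. The share of all genes that were lowest in replicate 1 on this scale is not given here. Rn7sk, the 7SK RNA that holds the transcription elongation factor P-TEFb inactive, deviated by -0.83, 0.28 and 0.54. Rn7s1 and Rn7s2, the 7SL RNAs of the signal recognition particle, deviated by -0.27, 0.18 and 0.09 and by -0.26, 0.17 and 0.08. In TPM both were lowest in replicate 3 instead, at 296412 and 298314. In the kallisto-format tables their values were equal in each library, so they are not separate observations there. Terc, the telomerase RNA, deviated by -1.15, 0.19 and 0.96 from only 7, 30 and 69 counts. All 7 RNAs of this list summed to a TPM of 669746, 700766 and 685857, so they took up most of the TPM scale. Vaultrc5, a vault RNA, had a TPM of 94.8 ± 18.8 (SD, n = 3) from 14 to 27 counts, and its CPM was lowest in replicate 3. Rny1 and Rny3, the Y RNAs, are listed at 0 in the gene tables with an effective length of 0, and at 4.72 ± 1.82 and 29.9 ± 8.04 (SD, n = 3) in the kallisto-format tables.

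RNAs that are known to stay in the nucleus were highest in replicate 3. The 6 nuclear RNAs examined (Malat1, Neat1, Xist, Airn, Kcnq1ot1 and Meg3) had a summed TPM of 245.63, 224.43 and 1111.43 in replicates 1, 2 and 3. All were highest in replicate 3 except Meg3, which had 0 counts in each library. Malat1 had a TPM of 223.75, 206.53 and 1008.18, and Neat1 had 18.65, 16.7 and 92.54. Rmrp was also highest in replicate 3 and Rpph1 was not. The part of nuclear RNA in the levels of Rpph1 and Rmrp was not tested.

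**Figure D3:**
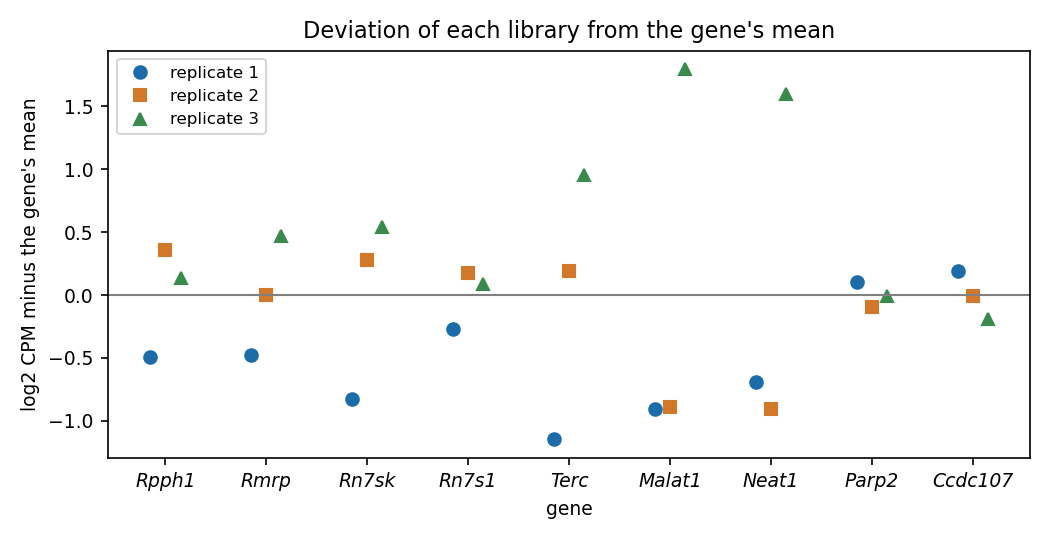
Deviation of each library from the gene's own mean TMM log2 CPM (n = 3 libraries) for Rpph1, Rmrp, other short RNAs, the nuclear RNAs Malat1 and Neat1, and the overlapping or adjacent protein-coding genes Parp2 and Ccdc107. Replicate 1 is lowest for Rpph1, Rmrp, Rn7sk, Rn7s1 and Terc, and Malat1 and Neat1 stand apart in replicate 3 at 1.80 and 1.60.

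By the pattern over the 3 libraries alone, the genes most like Rpph1 were Gm6560, Cbfa2t3, Gm6472, Kifc1 and Gm18537. Their Euclidean distances in centred log2 CPM were 0.0058 to 0.025. Those most like Rmrp were Gm12174, Ryk, Zeb1, Tlcd1 and Gm18588, at 0.0216 to 0.038. All 10 had at most 797 counts in a library. A pattern over 3 libraries is matched closely by some of 12412 genes in any case.

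The genes next to the RNAs did not have comparable levels. Parp2, a DNA repair poly(ADP-ribose) polymerase on the opposite strand at chr14:50807841-50821301, starts beyond a gap of 73 bases from the 5′ end of Rpph1. It had a TPM of 9.64, 6.93 and 7.68, with replicate 1 highest, where Rpph1 was lowest. Of the 9023 detected protein-coding genes, 82.6% likewise had their highest TPM in replicate 1. Ccnb1ip1 (chr14:50789248-50807732), on the same strand, overlaps 284 of the 319 bases of Rpph1. It is listed at 0, 0 and 0.04 in the gene tables. Its transcript Ccnb1ip1-202, which shares sequence with Rpph1, held 0, 0 and 1.1 expected counts there and 21.4, 87.9 and 115 estimated counts in the kallisto-format tables.

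Ccdc107 (chr4:43492900-43495921), a coiled-coil protein gene on the opposite strand, overlaps 164 bases of the longer Rmrp entry and had a TPM of 7.21, 4.88 and 4.35. Its transcript Ccdc107-206 held 0, 1.01 and 3.02 expected counts, and 15.4, 25.3 and 72.8 in the kallisto-format tables. Whether the counting used strand is not given in the sources used here. Against the Rmrp counts, all of these are small. Rprl3 held 0, 1 and 1 counts in the gene tables.

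RefSeq's table of promoter windows (GRCm38.p6, 250 bases before to 50 after a gene's start) was searched on both strands for the octamer ATGCAAAT, which is known to bind the factor Pou2f1, and for TATAAA. The table has no entry for Rpph1 or Rmrp, but the windows of Parp2 and Ccdc107 reach into their upstream regions. The Parp2 window holds the octamer at positions -100 to -93 from the first base of Rpph1 (chr14:50807860-50807867). The Ccdc107 window holds it on the other strand at -218 to -211 from the first base of Rmrp (chr4:43493274-43493281), and holds TATAAA, also on the other strand, at -164 to -159. The Ccdc107 window reaches no closer to Rmrp than position -52. Among all 32851 windows, 1.74% hold the octamer and 13.6% hold TATAAA. None of the 7 protein genes with an entry (all but Pop1) holds either. These are matches of letters, with no measurement of binding.

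The protein subunit mRNAs were all far below the RNAs, and 7 of 8 were detected. Across the genome, 41.0% of 22028 annotated protein-coding genes reached a TPM of at least 1 in all 3 libraries. The 8 protein genes summed to a TPM of 24.87, 22.55 and 20.58 in replicates 1, 2 and 3, a mean of 22.7 ± 2.15 (SD, n = 3). The 2 RNAs summed to 52436, 65318.7 and 66381.2. The RNAs were therefore 2108-, 2897- and 3226-fold higher per effective length. The mean log2 ratio was 11.40 ± 0.32 (SD, n = 3), with p = 0.25 in the exact two-sided sign-flip permutation test, the smallest possible. In expected counts, with no length correction, the ratio was 159-, 268- and 277-fold. Ribosome-depleted total RNA keeps RNAs without a poly(A) tail, and these ratios compare RNAs within a library, not proteins.

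The median TPM of the 8 protein genes, with undetected Rpp25 included, was 2.96 ± 0.26 (SD, n = 3). It was 6.92 ± 0.63 over the protein-coding genes detected in a library. That set leaves out undetected genes, so the medians are not over like sets. Pop7 had the highest mean, and 35.8% of the 9023 protein-coding genes detected in all 3 libraries were lower. For Pop1, the lowest of the detected 7, this share was 6.02%. Of those 7 genes, 5 were highest in replicate 1, as were 82.6% of the detected protein-coding genes.

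Pop7 and Rpp25 form the heterodimer that binds a conserved stem near the 5′ end of both RNAs. Pop7 (chr5:137501438-137502518) had a TPM of 5.92, 4.60 and 3.74 in replicates 1, 2 and 3, from 184, 263 and 277 counts. Replicate 1 was highest and replicate 3 lowest, and both annotated transcripts are protein-coding, with Pop7-201 holding 92.8%, 90.3% and 92.7% of the TPM. Rpp25 (chr9:57504026-57505448) held 1, 2 and 1 counts, a TPM of 0.02, 0.02 and 0.01. These counts lie below a floor of 3 counts, the upper limit for a gene with 0 counts, which is 0.114, 0.0716 and 0.0533 CPM. In a single library the level of Rpp25 is therefore not read beyond being at or near 0.

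Rpp25l, the paralogue of Rpp25, had a TPM of 5.65, 4.49 and 3.83, close to Pop7 in each library. Over the 3 libraries Rpp25l held 680 counts and Rpp25 held 4. Per unit of length this is a ratio of 322, with an exact 95% interval of 125 to 1184 for counting error only. Which of the paralogues is present as protein was not measured.

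Pop1 (chr15:34495304-34530648), the largest protein of both enzymes, which wraps around the RNA core, had a TPM of 1.56, 1.83 and 1.46 from 209, 345 and 465 counts. In CPM its values were 7.94, 8.23 and 8.26, so it was nearly level per library while its TPM was highest in replicate 2. In replicate 2, 30.4% of its TPM came from the retained-intron transcript Pop1-205, which held only 14.4 counts. The TPM of its protein-coding transcripts alone was 1.44, 1.28 and 1.37. Replicate 2 was then lowest.

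Pop5, Rpp14 and Rpp30 assemble together at the catalytic domain of the RNase P RNA. Pop5 (chr5:115235836-115245351) had a TPM of 3.73, 4.98 and 5.20 from 79, 170 and 213 counts, with replicate 1 lowest. Most of this level was not in the protein-coding transcript. Pop5-201, its only protein-coding transcript, had a TPM of 1.31, 1.24 and 0.67, or 35.2%, 24.8% and 12.9% of the gene. The 428-base processed transcript Pop5-204, annotated with no coding sequence, had 1.38, 2.59 and 3.41, or 37.1%, 51.9% and 65.7%.

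The coding share of Pop5 was lowest in replicate 3 in each kind of table. In the kallisto-format tables it was 38.5%, 35.1% and 20.3%, and in expected counts it was 62.3%, 49.7% and 27.9%. These shares rest on 49.2, 84.5 and 59.4 counts for Pop5-201 and on 13.0, 46.8 and 80.3 for Pop5-204. Rnf10, which overlaps Pop5 on the opposite strand, shares no exon base with any Pop5 transcript. Replicate 3 was also the library with the highest nuclear RNAs, and their part in this share was not tested.

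**Figure D4:**
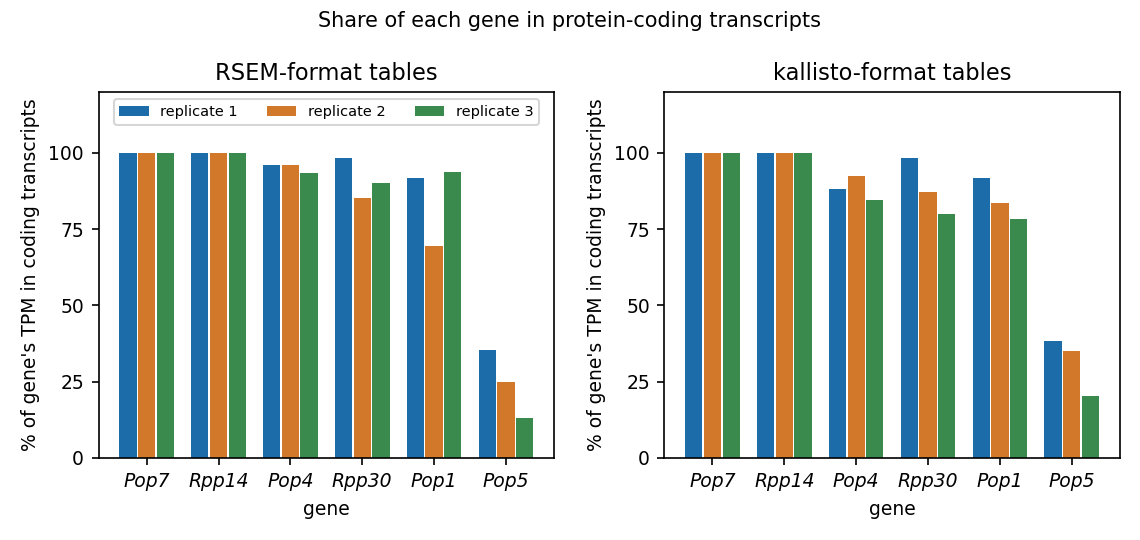
Percent of each gene's TPM held by transcripts annotated as protein-coding, with 1 bar per library, in the RSEM-format tables (left) and the kallisto-format tables (right); Rpp38 and Rpp25 have a single transcript and are not drawn. Pop5 is lowest in both panels, at 35.2%, 24.8% and 12.9% on the left and 38.5%, 35.1% and 20.3% on the right.

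Rpp14 (chr14:8080367-8091834) had a TPM of 4.49, 3.75 and 2.97 from 350, 543 and 595 counts, with replicate 1 highest and replicate 3 lowest in both kinds of table. Both of its transcripts are protein-coding, and the short Rpp14-202 held 27.2%, 24.5% and 18.8% of its TPM. Rpp30 (chr19:36083716-36104777) had the smallest relative spread in TPM of the 10 genes, at 3.33, 3.16 and 3.09 from 145, 223 and 317 counts. Its protein-coding transcript Rpp30-201 held 98.5%, 84.9% and 90.2% of the TPM.

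Pop4 and Rpp38 belong to the part of RNase P that contacts the domain of the RNA which recognises the substrate. Pop4 (chr7:38261996-38271423) had a TPM of 3.16, 2.55 and 2.56 from 273, 397 and 510 counts. Its single protein-coding transcript held 96.3%, 96.2% and 93.4% of this. Rpp38 (chr2:3328949-3332643), a protein that binds kink-turns in RNA, had a TPM of 2.66, 1.66 and 1.55 from 102, 116 and 141 counts. Replicate 1 stood above the other libraries for both genes.

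In order of mean TPM the protein genes were Pop7, Pop5, Rpp14, Rpp30, Pop4, Rpp38, Pop1 and Rpp25. Ranges over the 3 libraries overlapped between every pair of neighbours in that order except Pop1 and Rpp25. Under the other settings the order had a Spearman rho of at least 0.95 with this one over the 8 genes, so single neighbours changed places. Without replicate 1, Pop5 (5.09) was highest and stood above Pop7 (4.17). In the kallisto-format tables Rpp14 (1.86) stood above Pop5 (1.84). In the kallisto-format tables the sum of the 8 was 9.91 ± 1.36 (SD, n = 3). Pop1 was then below a value of 1 in all 3 libraries, and Rpp38 was below 1 in replicates 2 and 3. Over protein-coding transcripts alone the sum of the 8 was 22.15, 17.70 and 15.49, a setting chosen after the data were examined.

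With all 3 libraries, each protein mRNA past the filter had a smaller spread in log2 CPM than either RNA. In TPM, the coefficient of variation of Rpp38 (31.3%) and Pop7 (23.1%) was above that of both RNAs. Those of the other protein mRNAs past the filter were below that of Rmrp (21.5%). The SD of TMM log2 CPM was 0.28 for Rpp38, 0.27 for Pop5, 0.21 for Pop7 and 0.14 for Rpp14. Counting error alone would give 0.13, 0.13, 0.09 and 0.07 for these genes. For Pop1, Rpp30 and Pop4 it was 0.08, 0.07 and 0.05, below the counting error of 0.08, 0.10 and 0.08. Rpp25 did not pass the filter. That order did not hold without replicate 1, where Pop7 (0.23) and Rpp14 (0.19) had a larger SD than Rpph1 (0.16). Without replicate 3, Pop5 (0.35) had a larger SD than Rmrp (0.34). The median SD of the 9 members past the filter was 0.21, and it was 0.08 without replicate 1 and 0.08 without replicate 3.

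**Figure D5:**
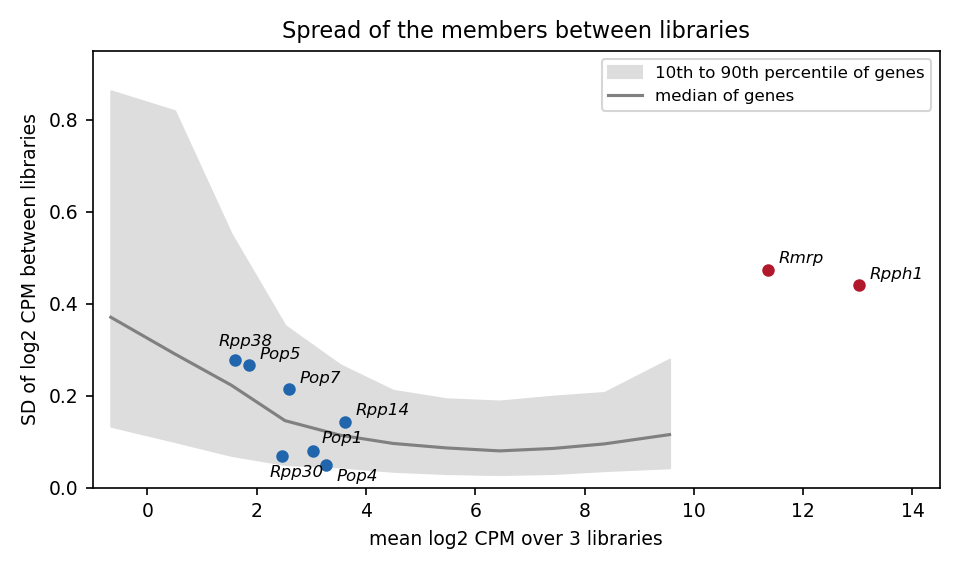
SD of TMM log2 CPM over the 3 libraries against mean log2 CPM for the 9 members past the filter (red, RNAs; blue, protein mRNAs), with the median and the 10th to 90th percentile of all 12412 genes by level class. Rpph1 (0.44) and Rmrp (0.47) lie above the 90th percentile of 0.28 of the highest level class, and Pop1 (0.08), Rpp30 (0.07) and Pop4 (0.05) lie below the median of genes at their level.

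The other proteins of the enzymes were also measured. Rpp21, which with Pop4 contacts the RNase P RNA and is known as a subunit of RNase P rather than RNase MRP, had a TPM of 8.66, 7.67 and 6.58 (mean 7.64 ± 1.04, SD, n = 3). Its range did not overlap that of Pop7, the highest of the 8 by mean. Over protein-coding transcripts alone it did, at 5.84, 5.47 and 3.59 for Rpp21 and 5.91, 4.61 and 3.74 for Pop7. Rpp40, a protein of both enzymes, had a TPM of 2.41, 0.83 and 2.04, although its counts were 72, 95 and 137 and its CPM 2.74, 2.27 and 2.43. The 276-base transcript Rpp40-203 had a TPM of 1.63, 0.11 and 1.24 from 4.88, 0.69 and 10.1 counts, and it held most of the TPM in replicates 1 and 3.

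Mitochondrial RNase P, an enzyme of proteins alone, was detected with all 3 of its subunits. Hsd17b10, a dehydrogenase subunit, had a mean TPM of 11.9 ± 1.25, Trmt10c, the tRNA methyltransferase subunit, 2.96 ± 0.25, and the nuclease subunit Prorp, listed as 1110008L16Rik, 1.81 ± 0.11 (SD, n = 3).

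Genes that act on the same substrates were also present. Of 14 genes for tRNA 3′ end processing and splicing, 12 were detected throughout, and the list's median TPM was 4.60. The highest were Ssb, the La protein that binds the 3′ end of polymerase III transcripts, at 23.8 ± 2.14, the tRNA ligase Rtcb at 14.8 ± 2.07, its cofactor Zbtb8os at 11.0 ± 2.74 and the splicing endonuclease subunit Tsen34 at 8.76 ± 0.70 (SD, n = 3). All 11 genes for the processing of the ribosomal RNA precursor were detected, with a median of 4.50. Rrp1 stood at 28.2 ± 1.65, the 5′ exonuclease Xrn2 at 13.3 ± 1.68, Pes1 at 9.88 ± 1.22 and the exosome nuclease Exosc10 at 8.67 ± 0.93 (SD, n = 3).

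Genes of the transcription machinery for the RNAs followed the same range. Of 10 factors for polymerase III promoters outside the transcribed sequence, 9 were detected, with a median TPM of 2.36. The highest were Snapc5 at 11.0 ± 0.93, Bdp1 at 4.61 ± 0.41, Snapc2 at 3.89 ± 0.47 and the TATA-binding protein gene Tbp at 2.98 ± 0.30 (SD, n = 3). All 14 genes of polymerase III and its repressor Maf1 were detected, with a median of 4.63. Polr1d stood at 23.1 ± 2.17, Maf1 at 20.0 ± 0.26 and Polr3gl at 8.37 ± 1.15 (SD, n = 3). Over these 6 lists of proteins, 51 of 55 genes were detected in all 3 libraries, a share of 92.7%, beside 7 of the 8 protein genes described above, or 87.5%.

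The remaining neighbours within 1000 bases of a protein gene had mean levels from 0 to 28.3 TPM. Rida, 48 bases from Pop1 on the opposite strand, had a TPM of 4.28 ± 1.04. Nmt2, 71 bases from Rpp38 on the opposite strand, had 3.64 ± 0.40, and Rnf10 had 28.3 ± 3.31 (SD, n = 3). The lincRNA 9130604C24Rik near Pop7 had 0.153 ± 0.055 (SD, n = 3). Gm49195 near Pop1, Gm44767 at Pop4 and Epo, whose annotation spans Pop7, had 0 counts in each library.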

How the data were processed

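Values refer to mm10 and GENCODE M21 per the labels and deposited notes, and the tables have RSEM-format and kallisto-format columns, per the file headers. Tool versions are not given in the sources used here. The authors deposited expected counts (estimated reads per gene, which need not be whole), TPM, and the percent of a gene's TPM held by each transcript. Totals over genes, ratios, coding shares and CPM were computed here with Python 3.11.15, pandas 2.3.3 and scipy 1.17.1. Gene symbols came from the kallisto-format tables, whose tpm was summed per gene. Levels are TPM as deposited, with no filter beyond the detection threshold of 1. The spread came from edgeR 4.0.16 in R 4.3.3 on rounded expected counts, using TMM, edgeR's filter on low counts, a prior count of 2 and an intercept only. The step was tested on simulated data. Replicate pairs differed beyond counting noise (chi-square per degree of freedom of 40.6 to 63.8).

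There is 1 group, so the only test is the exact sign-flip test of a ratio over 3 libraries. Every member, each Rmrp identifier, genes within 1000 bases, the 5 nearest patterns to each RNA, and the highest 4 and any at 0 counts of each context list were named; macrophage and other markers served only to check the cell type. A gene that this rule names in the polymerase III list is not reported here. The members and lists were chosen with earlier results of these data known. Alternatives were other quantifications, lengths, pseudocounts, scalings and filters, 1 Rmrp identifier, and leaving out each library.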

Additional observations from a re-analysis of the deposited data

How the results depend on the processing

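There is only 1 group, so no samples could be paired between groups. The sign-flip test of each of the 2 ratios was paired within a library. The ratio of Rpph1 to Rmrp and that of the RNAs to the protein mRNAs kept their direction under all 9 alternatives each, from 0.84 to 1.66 and from 7.83 to 11.58 on the log2 scale. Both were positive in each library, so leaving out a library or adding a pseudocount could not have reversed them. Using the higher Rmrp identifier alone could not have reversed the first. Levels depended on the quantification. With the kallisto-format tpm the mean was 15443 for Rpph1, 6369 for Rmrp, 9.91 for the sum of the 8 protein genes and 1.31 for their median. With TPM rescaled over the members and genes with an effective length of at least 500, it was 153174 for Rpph1, 75955 for Rmrp and 84.1 for the protein sum. The higher Rmrp identifier alone gave 15178. Protein-coding transcripts alone, a setting added after the data were examined, gave 18.4 for the protein sum. At a TPM of at least 5, 2 of the 10 genes were detected, and 7 reached a value of 1 in the kallisto-format tables. For the 9 members past the filter the median SD ranged from 0.0802 without replicate 1 to 0.2902 without replicate 2. The first ratio lay beyond 1 SD of its value with counts per full length (1.44), the higher Rmrp identifier (1.47) and counts alone (1.66), and the second with counts per full length (10.03) and counts alone (7.83). There were 58 alternatives in all, of which 9 belonged to each of the 2 ratios. Of the rest, for the other 6 results, 12 moved levels beyond the SD between libraries, or counts and SDs by over 1.5 times. The cause was not tested. Precision for Rpp38, Pop5 and Rpp30 is limited by 79 to 317 counts in a library, and for Rpp25 by 1 or 2. Effective lengths of 59.65 to 110.92 bases set the TPM of the RNAs, and these were estimated by the authors' tool.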
